A study of Mus musculus with 9 samples.

Results

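The interferon response genes described here are transcripts that T cells and most other cells switch on when they meet interferons. They were a list of 38 genes, matched by exact symbol to the probe sets of a whole-transcript Affymetrix microarray, and 33 of them had a probe set of their own among 22180 genes measured. The list was kept in parts: 21 of 24 genes best known for induction by type I interferon, 11 of 12 best known for induction by interferon-gamma, and 1 of 2 (Ly6e, not Ly6a) that respond to both. Oas1a, Ifi27l2a and Gbp2 are represented by probe sets that name several genes and were not used, and Ifi44 and Ly6a had no named probe set. Each measured gene had 1 probe set. Whether a probe set is unique to its gene was not tested. The samples were regulatory T (Treg) cells, the CD4 T cells that hold immune reactions in check and are specified by Foxp3, a transcription factor. There were 9 arrays, 1 per sample, in 2 groups: 5 wild type, from Foxp3YFP-Cre donors, and 4 Mst1/Mst2-null, from Foxp3YFP-CreStk4f/fStk3f/f donors. Both groups therefore had the YFP-Cre allele of Foxp3, and this Cre acts in cells that express Foxp3. Stk4 and Stk3 encode the Hippo kinases Mst1 and Mst2. In both groups donor marrow was mixed with CD45.1 wild-type marrow and given to RAG1-/- hosts, which lack T and B cells of their own. The CD45.2 cells that were CD4+ and YFP+ were sorted 2 months later. The labelled strain is C57BL/6, and no source used here gives ages. Nothing in the labels says that samples came from separate hosts, so p-values measure only the spread between these samples, which may be technical.

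Type I interferons bind a receptor made of Ifnar1 and Ifnar2, and the kinases Jak1 and Tyk2 then act on Stat2. A complex that holds Stat2 and Irf9 reads a promoter motif called the interferon-stimulated response element (ISRE). Interferon-gamma binds Ifngr1 and Ifngr2 and signals through Jak1 and Jak2 to promoters with gamma-activated sites (GAS), and Irf1 is among the genes it induces. In Treg cells these pathways are known for shaping how the cells act in antiviral and type 1 responses, and a subset with the transcription factor Tbx21 and the chemokine receptor Cxcr3 arises with interferon-gamma.

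Many promoters of the listed genes hold these motifs. RefSeq windows from 250 bases before to 50 bases after the start of transcription (GRCm38.p6) were found for 25 of the 33 measured genes. An ISRE core, searched on both strands as GAAANNGAAA, occurred in 15 of them (60.0%), against 3.99% of 27025 genes with such a window. A GAS core, TTCNNNGAA, which reads alike on both strands, occurred in 7 (28.0%), against 9.55% of all. Among the type I genes 10 of 16 held the ISRE core and 2 of 16 the GAS core. For the interferon-gamma genes the counts were 5 of 9 for each motif. A gene with several annotated starts was counted where any of its windows held the motif. A match describes the letters in the window and does not show that a factor binds there. The 250 bases before the start are printed for Gbp7, Gbp3 and Gbp5, neighbours whose values are described further on, and for Isg15, a classic type I target, all 5′ to 3′ with the matched cores in capitals. Gbp7 lies at chr3:142530086-142530335 (plus strand), Gbp3 at chr3:142559794-142560043 (plus strand), Gbp5 at chr3:142496684-142496933 (plus strand) and Isg15 at chr4:156200819-156201068 (minus strand).
Gbp7: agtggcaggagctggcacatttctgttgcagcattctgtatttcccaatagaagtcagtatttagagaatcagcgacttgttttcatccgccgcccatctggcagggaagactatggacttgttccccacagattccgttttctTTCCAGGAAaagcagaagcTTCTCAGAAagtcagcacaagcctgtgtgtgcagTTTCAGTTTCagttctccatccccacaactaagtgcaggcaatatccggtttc
Gbp3: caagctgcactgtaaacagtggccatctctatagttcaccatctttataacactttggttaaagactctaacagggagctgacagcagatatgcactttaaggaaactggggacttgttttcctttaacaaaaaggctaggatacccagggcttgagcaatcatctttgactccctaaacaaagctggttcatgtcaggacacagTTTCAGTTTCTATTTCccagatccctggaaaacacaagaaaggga
Gbp5: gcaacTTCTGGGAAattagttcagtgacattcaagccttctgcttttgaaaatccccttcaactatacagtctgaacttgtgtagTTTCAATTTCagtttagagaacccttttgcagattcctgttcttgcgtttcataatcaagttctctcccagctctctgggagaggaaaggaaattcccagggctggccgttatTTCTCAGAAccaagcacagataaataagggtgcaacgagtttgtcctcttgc
Isg15: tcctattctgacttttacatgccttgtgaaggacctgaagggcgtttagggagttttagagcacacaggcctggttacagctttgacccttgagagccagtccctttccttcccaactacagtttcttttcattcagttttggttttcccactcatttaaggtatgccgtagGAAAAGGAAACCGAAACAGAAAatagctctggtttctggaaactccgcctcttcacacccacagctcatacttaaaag
The ISRE core of Gbp7 starts 53 bases before the start of transcription and its GAS cores 106 and 87 bases before it. Gbp3 has a pair of annotated starts. The ISRE cores of the printed window overlap, 45 and 39 bases before its start, and the window of the other start, whose 250 bases before it are chr3:142560106-142560355, holds no core of either kind. Gbp5 has an ISRE core 165 bases and GAS cores 245 and 52 bases before the start. Isg15 has 3 overlapping ISRE cores, the first of them 78 bases before the start, and no GAS core in this window.

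Values are log2 RMA values, so a difference of 1 is 2-fold, and differences are given as null minus wild type. A gene passed where the adjusted p of limma's moderated test over all 22180 genes was under 0.05. Sample medians lay between 3.99 and 4.08. Over all genes 515 (2.32%) passed, 95 of them higher in null cells (0.428%) and 420 lower (1.89%), and after quantile normalisation of the gene values 476 passed, 170 of them higher. Stk4 had lower values in each null array than in any wild-type array (difference -0.27, limma adjusted p = 0.146), and no named probe set represents Stk3. No source used here says which exons of Stk4 its probe set covers, and probes outside the deleted part check nothing. Foxp3, the defining marker of the labelled cell type, was 10.7 in both groups (difference 0.014, limma adjusted p = 0.949). Of 7 Treg markers 1 passed: Ikzf2 fell 1.65-fold (limma adjusted p = 0.033), a call lost without any single wild-type array or null array 1 or 2 (limma adjusted p from 0.0545 to 0.0908). By their means 5 of the 7 were lower in null cells and 2 higher. At an unadjusted p under 0.05 in the limma test there were 4, against 14.9% of all genes. Cd3e, also lower, passed only in alternative fits. These were median centring, trended robust eBayes, array weights, genes above the median of all probe sets only, the level of Hspa1a and Hspa1b as a covariate, and the fit without null array 2. The summed linear level of these 7 markers was 7250 to 7820 in wild type and 6030 to 6780 in null cells, without overlap. The 2 CD8 T cell markers summed to 89.1 to 120 in wild type and 124 to 212 in null cells, also without overlap, though neither gene passed (1 at an unadjusted p under 0.05). The brighter gene, Cd8b1, weighs most in this sum (means 6.47 and 7.03, limma adjusted p = 0.133). Cd8a read 4.15 to 4.84 in wild type and 4.35 to 4.86 in null cells (limma adjusted p = 0.758). Taken alone, each of these genes overlapped between the groups. All 4 measured NK cell markers had means below the median of all probe sets. The part of either list in the differences below was not tested.

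The interferon response genes had no common shift between null and wild-type Treg cells. Of the 33 measured, 1 passed the test (Gbp7, which fell 1.35-fold), or 3.03% against 2.32% of all genes, and so near the share over the array as a whole. The median difference was 0.048 over the 33, against 0.0023 over all genes, with 20 differences above 0 and 13 below. It was between 0.016 and 0.027 without wild-type array 1 or 5 or null array 3 or 4, with 17 above 0 and 16 below without wild-type array 1, and 0.030 with array weights and 0.082 after quantile normalisation. At an unadjusted p under 0.05 there were 10 of 33 (30.3%) against 14.9% of all genes: Irf7, Oas2, Usp18, Gbp4 and Iigp1 with higher means in null cells, and Ifih1, Gbp3, Gbp7, Psmb8 and Ly6e with lower ones. The groups did not overlap for 6 of 33, against 6.16% of all genes. In 2 of them, Irf7 and Usp18, null values were the higher (1.76% of all genes), and in 4, Ifih1, Gbp3, Gbp7 and Ly6e, the lower (4.4% of all genes). The 95% interval of the difference lay wholly within 1.5-fold in either direction for 29 of 33 genes, against 88.9% of all genes. The other four were Oas2, Ifih1, Gbp3 and Gbp7.

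**Figure D1:**
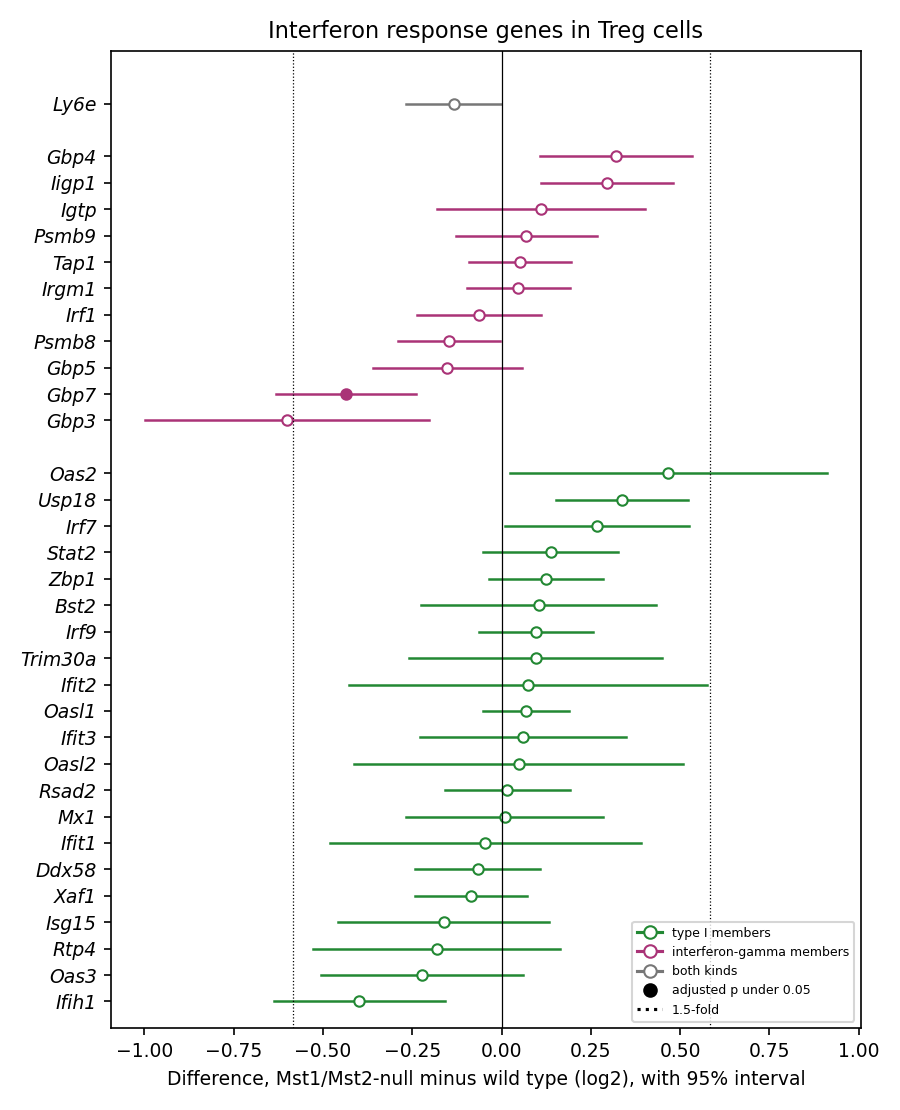
Difference between Mst1/Mst2-null and wild-type Treg cells for each of the 33 measured genes (x axis, log2 units, null minus wild type), with bars for the 95% interval, by group of genes. Only Gbp7 is drawn filled (adjusted p under 0.05), differences run from -0.60 (Gbp3) to 0.47 (Oas2), and dotted lines mark 1.5-fold.

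Among the type I genes none of 21 passed the limma test, against 2.32% of all genes. At an unadjusted p under 0.05 there were 4 (19.0%), against 14.9% of all genes. The median difference of the 21 was 0.061, with 14 above 0 and 7 below. The median was 0.016 without wild-type array 1 and 0.017 without null array 4, with 11 above 0 and 10 below in either case, 0.035 without null array 3 and 0.030 with array weights. The genes that start the response are described first. Irf7, the transcription factor that amplifies type I interferon production, read 6.67, 7.0001, 6.75, 6.9988 and 7.0001 in the 5 wild-type arrays and 7.01, 7.10, 7.01 and 7.48 in the 4 null arrays. The groups did not overlap, but 3 wild-type arrays lay just below the lowest null arrays, and null array 4 stood highest. The means were 6.88 ± 0.16 (SD, n = 5) and 7.15 ± 0.22 (SD, n = 4), a difference of 0.27 ± 0.12 (SE, limma adjusted p = 0.308). Stat2 and Irf9, parts of the complex that reads the ISRE, differed by 0.14 (95% interval -0.053 to 0.33) and 0.096 (-0.063 to 0.26).

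Usp18, an enzyme that removes Isg15 from proteins and also holds back signalling from the type I receptor, came closest to passing among the type I genes. Wild-type arrays read 7.56, 7.53, 7.66, 7.59 and 7.35, and null arrays 7.88, 8.05, 7.80 and 7.76. Each null value lay above each wild-type value, and the difference was 0.34 ± 0.083 (SE, limma adjusted p = 0.0704). Usp18 passed after quantile normalisation of the gene values (difference 0.41, limma adjusted p = 0.0167) and when only genes above the median of all probe sets were tested (limma adjusted p = 0.0463).

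The sensors of viral RNA differed in sign, and none passed. Ifih1 encodes MDA5, which detects long double-stranded RNA. It read 6.98, 7.33, 7.18, 7.10 and 6.83 in wild type and 6.71, 6.47, 6.77 and 6.80 in null cells. Every null array lay below every wild-type array, though wild-type array 5 and null array 4 nearly met, and the difference was -0.40 ± 0.11 (SE, limma adjusted p = 0.0974). Its window holds an ISRE core, GAAACAGAAA, that begins at base 33 after the start of transcription. Ddx58, which encodes the related sensor RIG-I, differed by -0.067 (95% interval -0.24 to 0.11), or by 0.010 after quantile normalisation. Zbp1, a sensor of left-handed nucleic acid that can trigger cell death, differed by 0.12 (-0.036 to 0.28).

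The classic effector genes had overlapping values. Isg15, a ubiquitin-like protein, read 5.81, 6.21, 5.83, 5.95 and 6.05 in wild type and 5.40, 5.89, 6.07 and 5.87 in null cells. Null array 1 was the lowest of the 9, while null array 3 was above 4 of 5 wild-type arrays, and the difference was -0.16 (95% interval -0.46 to 0.13). The Ifit genes, whose products bind viral RNA, differed by -0.045 (Ifit1, or 0.032 after quantile normalisation), 0.073 (Ifit2) and 0.060 (Ifit3). Their null values spread more widely for Ifit2 (SD 0.56, n = 4, against 0.20, n = 5) than for the others: null array 1 held its highest value, 6.85, and null array 4 its lowest, 5.52. In the Oas family, enzymes that activate RNase L, Oas2 differed by 0.47 ± 0.20 (SE, limma adjusted p = 0.302) and Oas3 by -0.22 ± 0.13 (SE, limma adjusted p = 0.471). Oas2 values lay between 3.88 and 4.54 in wild-type arrays, and null arrays spanned 4.20 to 5.20, so the groups overlapped. The Oas-like genes Oasl1 and Oasl2 differed by 0.069 and 0.048. Wild-type means of Oas2 (4.27), Oasl1 (4.34) and Oasl2 (4.12) lay only a little above 4.04, the median of all probe sets. Some single values of Oas2 and Oasl2 lay below it.

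Mx1, an antiviral GTPase whose C57BL/6 allele is known to be non-functional, and Rsad2, which encodes viperin, stayed in both groups below 4.04, the median over the values of all probe sets. In that dim range a signal cannot be told from background here. Their differences were 0.0088 and 0.016, or -0.020 and -0.0058 after quantile normalisation. Bst2, which tethers budding virions, differed by 0.10 (95% interval -0.23 to 0.43), and Rtp4, a receptor transporting protein, by -0.18 (-0.53 to 0.16). Xaf1, a pro-apoptotic gene, differed by -0.086 and Trim30a, a TRIM family gene that dampens Toll-like receptor signalling and has near-identical relatives, by 0.095. Null arrays disagreed with each other on Trim30a, from 6.31 in null array 2 to 7.12 in null array 3, against 6.38 to 6.73 in wild type.

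The interferon-gamma genes gave the one call, as 1 of 11 passed (9.09%, against 2.32% of all genes). At an unadjusted p under 0.05 in the limma test there were 5 (45.5%, against 14.9% of all genes). Of these, Gbp3, Gbp7 and Psmb8 had lower means in null cells, and Gbp4 and Iigp1 higher ones. The median difference over the 11 genes was 0.047, with 6 above 0 and 5 below. This median was between 0.014 and 0.027 without wild-type array 3 or 5 or null array 2, 3 or 4, and 0.089 after quantile normalisation. The guanylate-binding proteins (Gbp) are large GTPases that attack the vacuoles of intracellular pathogens. Gbp7 read 8.10, 8.08, 8.31, 8.22 and 8.36 in wild type and 7.60, 7.76, 7.95 and 7.81 in null cells. No null array reached the lowest wild-type value. The means were 8.21 ± 0.12 (SD, n = 5) and 7.78 ± 0.14 (SD, n = 4), so Gbp7 fell by 0.44 ± 0.088 on the log2 scale (SE, limma adjusted p = 0.0316). In sorted bulk RNA, fewer cells of a type and less RNA per cell cannot be told apart. The call was lost without wild-type array 3, 4 or 5 or null array 1, 2 or 4 (limma adjusted p from 0.0553 to 0.0831), with differences from -0.38 to -0.45. After quantile normalisation of the gene values the difference was -0.36 (limma adjusted p = 0.0756).

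Its chromosomal neighbours had lower means too. Gbp3 had the largest difference of the 33 genes in size, -0.60 ± 0.18 (SE, limma adjusted p = 0.131). Wild-type arrays read 7.11, 7.15, 7.09, 7.08 and 7.53 and null arrays 6.11, 6.38, 7.005 and 6.88. All null values were below all wild-type values, yet null arrays 3 and 4 lay near the wild-type arrays while null arrays 1 and 2 were far lower. Gbp5, which assembles with other Gbp proteins and promotes the inflammasome, read 6.53, 6.35, 6.35, 6.34 and 6.39 against 5.99, 6.19, 6.29 and 6.49. The groups overlapped through null array 4, and the difference was -0.15 ± 0.094 (SE, limma adjusted p = 0.519). Gbp4 went the other way, with 7.59, 7.79, 7.54, 7.42 and 7.44 in wild type and 7.81, 7.93, 8.05 and 7.70 in null cells. Only null array 4 lay below the highest wild-type array, and the difference was 0.32 ± 0.096 (SE, limma adjusted p = 0.133).

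**Figure D2:**
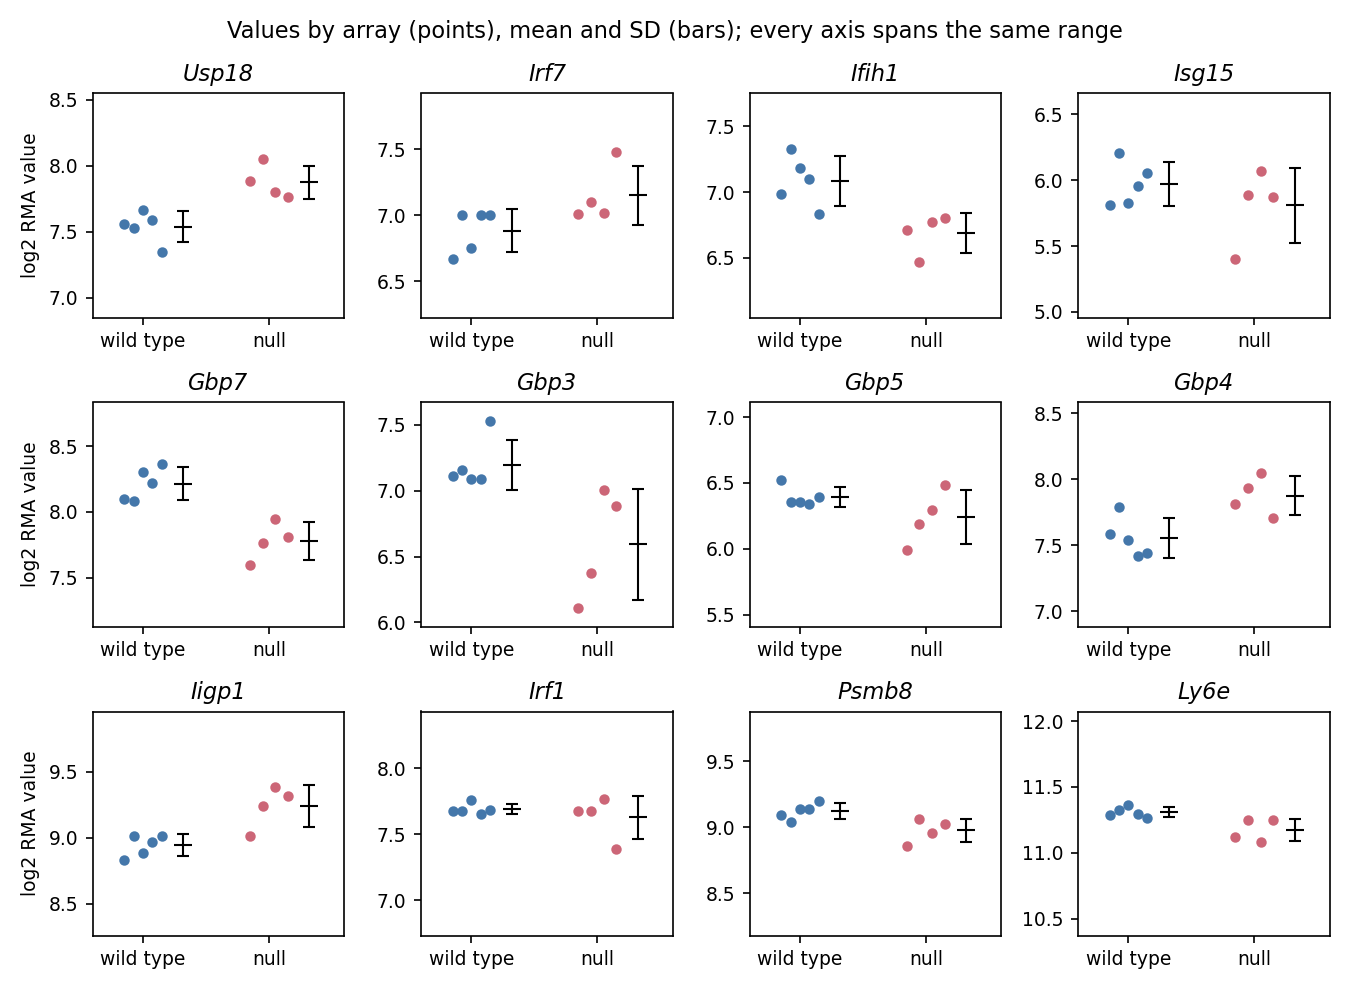
Log2 RMA values of 12 of the genes by array (points, 5 wild type and 4 null), with the mean and SD of each group beside them. All panels span the same range, so that the gap in Gbp7 (means 8.21 and 7.78) can be compared with the overlap in Isg15 (means 5.97 and 5.81).

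The Gbp genes lie in clusters on chromosomes 3 and 5, and most signs differed between the clusters. On chromosome 3 all 4 measured genes had lower means in null cells, in gene order Gbp5 (-0.15), Gbp7 (-0.44), Gbp3 (-0.60) and Gbp2b (-0.59), with the fifth gene, Gbp2, not used. On chromosome 5, 5 of 6 had higher means: Gbp8 (1.73), Gbp9 (0.11), Gbp4 (0.32), Gbp10 (0.23) and Gbp11 (0.11), with Gbp6 at -0.13. These counts were the same after median centring and after quantile normalisation, and on chromosome 5 became 4 of 6 without null array 3. The contrast between the clusters was not tested, and it was noticed after the values were seen. Gbp2b ranged from 4.91 to 7.05 in null arrays, with null array 4 above all wild-type arrays, and did not pass (limma adjusted p = 0.499). Without null array 4 it passed (difference -1.05, limma adjusted p = 0.00792). Gbp8 rose 3.32-fold (limma adjusted p = 0.0121), from 6.66, 6.69, 5.95, 5.99 and 6.50 in wild type to 8.11, 7.20, 8.72 and 8.32 in null cells. Gbp6 and Gbp11 had means below the median of all probe sets. Gbp genes are similar enough in sequence for a probe to bind a relative, so a value may include signal from another member of the family, which was not tested.

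**Figure D3:**
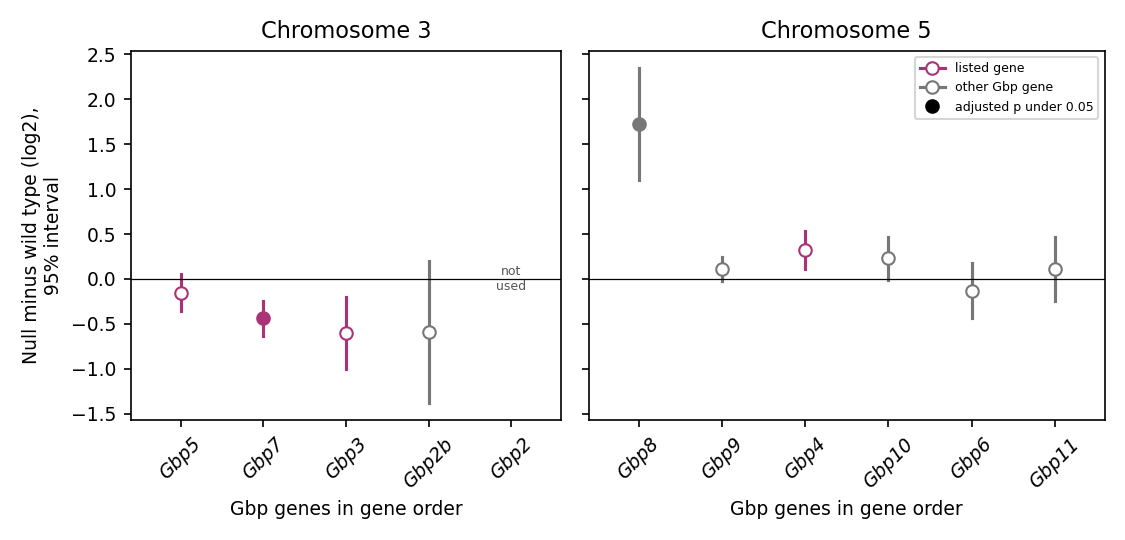
Difference (y axis, null minus wild type in log2 units, with 95% interval) for the Gbp genes of chromosomes 3 and 5, set out in gene order. The 4 measured genes of chromosome 3 lie below 0 and 5 of 6 on chromosome 5 above it. Filled points passed the test (Gbp7 and Gbp8).

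The second family of interferon-gamma GTPases, the immunity-related GTPases, acts in the defence against pathogens that live in vacuoles. Iigp1 read 8.83, 9.02, 8.89, 8.97 and 9.02 in wild type and 9.02, 9.24, 9.38 and 9.32 in null cells. Null array 1 equalled wild-type arrays 2 and 5, the other three null arrays lay higher, and the difference was 0.30 ± 0.083 (SE, limma adjusted p = 0.11). Without null array 1 it was 0.37 and passed (limma adjusted p = 0.0472). Irgm1 and Igtp differed by 0.047 (95% interval -0.096 to 0.19) and 0.11 (-0.18 to 0.40).

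Irf1, the transcription factor that carries the response to interferon-gamma forward, stood at 7.68, 7.68, 7.76, 7.66 and 7.69 in wild type and 7.68, 7.68, 7.77 and 7.39 in null cells. Apart from the low value of null array 4 the arrays read nearly alike (difference -0.062, 95% interval -0.24 to 0.11, with a difference of 0.015 after quantile normalisation). The antigen-processing genes had small differences too. Tap1, part of the peptide transporter, differed by 0.052 (95% interval -0.090 to 0.19, and 0.019 to 0.089 over the alternatives). Psmb9, a subunit of the immunoproteasome, differed by 0.069 (95% interval -0.13 to 0.27, and 0.014 to 0.12 over the alternatives). Psmb8, another such subunit, read 9.09, 9.04, 9.14, 9.14 and 9.20 against 8.86, 9.06, 8.96 and 9.02. Null array 2 overlapped wild type, and the difference of -0.15 ± 0.064 did not pass (SE, limma adjusted p = 0.315). Ly6e, a surface protein known to restrict coronaviruses, read 11.29, 11.32, 11.36, 11.30 and 11.27 in wild type and 11.12, 11.25, 11.08 and 11.25 in null cells. Its groups did not overlap, though null arrays 2 and 4 lay just below wild-type array 5, and the difference of -0.13 ± 0.060 did not pass (SE, limma adjusted p = 0.334).

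Arrays differed within each group, and for the type I genes the mean and the median put in part different arrays at the extremes. The mean deviation of the 21 type I genes from their 9-array means was -0.13, 0.11, -0.0091, 0.028 and -0.084 in wild-type arrays and -0.013, -0.071, 0.058 and 0.10 in null arrays. By this mean wild-type array 2 and null array 4 were highest and wild-type array 1 lowest. By the median deviation wild-type array 2 (0.038) and null array 3 (0.027) were highest, null array 4 stood at 0.0087, and wild-type array 5 was lowest (-0.081). For the 11 interferon-gamma genes it was 0.036, 0.024, -0.014, -0.0073 and 0.062 against -0.19, -0.0018, 0.090 and -0.0040, with null array 1 lowest, as it was by the median deviation (-0.069). Null array 4 held the highest value of Ifit3, Irf7, Stat2, Oas2, Oasl2 and Mx1, and wild-type array 2 that of Isg15, Ifit1, Rtp4, Xaf1, Ddx58 and Ifih1, 6 of 21 in each case, where 10.1% and 9.13% of all genes had their highest value in these arrays. Of 5 marker lists for other cell types, 3 had their highest sum in null array 4, while the CD8 T cell list was highest in null array 2 and the NK cell list in null array 1. The summed linear level of 7 B cell markers was 368 in it, the highest of all arrays, against 172 to 331 in wild type and 190 at the lowest in null cells. The same array had the highest sum over 11 myeloid markers (766, against 526 to 683 in wild type and 530 at the lowest in null cells) and over 10 markers of plasmacytoid dendritic cells (347, against 303 to 323 and 290). The last list includes Bst2, itself a type I gene. Of these markers, Ebf1, Cr2, Itgam, Cd14, Adgre1, Itgax, Klk1, Clec10a and Smim5 had means below the median of all probe sets, and no marker of these 3 lists passed the limma test (1, 3 and 3 had an unadjusted p under 0.05). Means were higher in null cells for all 7 B cell markers, 8 of 11 myeloid markers and 9 of 10 of the last list. The median differences were 0.25, 0.20 and 0.077, against 0.0023 over all genes. Without null array 4 the counts were 6, 8 and 8, and the medians 0.073, 0.11 and 0.089. Pacsin1, the 1 marker of the last list with a lower mean, passed without null array 2 (limma adjusted p = 0.0319). The part of these markers in the values of null array 4 and of the other arrays was not tested.

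**Figure D4:**
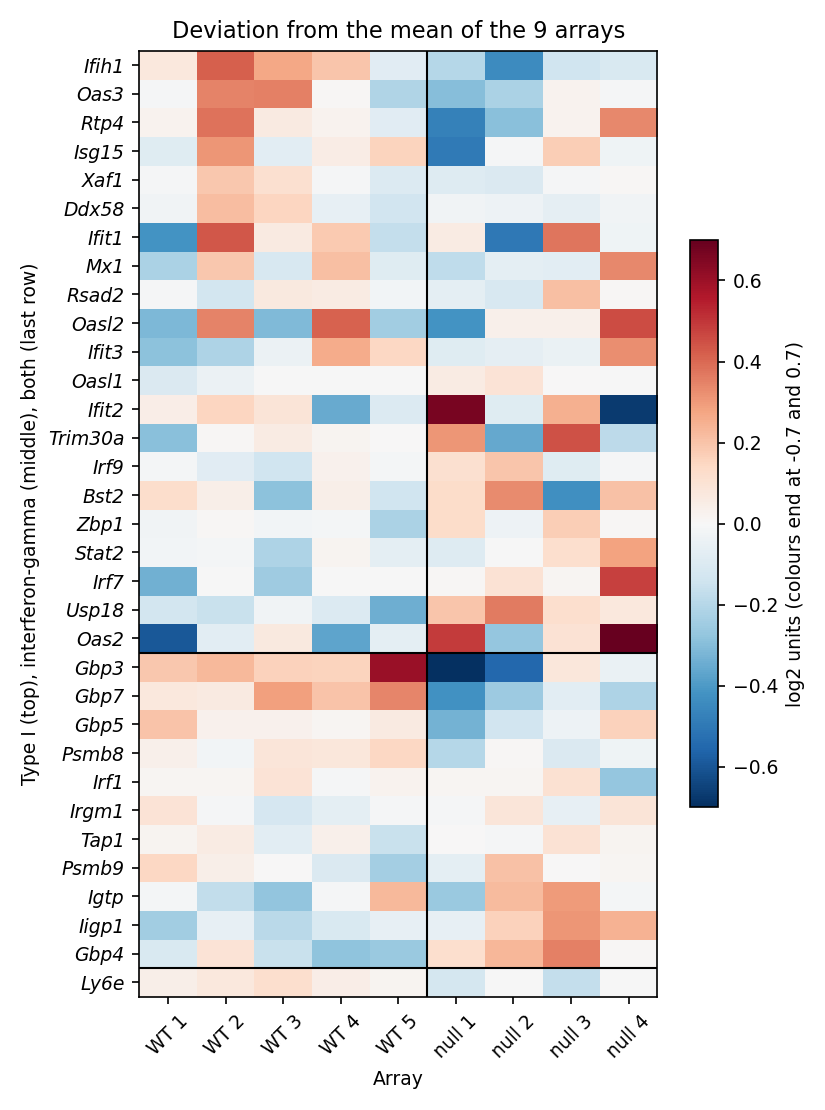
Deviation of each gene's log2 value from its mean over the 9 arrays (colour, red above and blue below the mean) for type I genes (top), interferon-gamma genes (middle) and Ly6e (last row), with arrays in columns and a line between wild type and null. No column is of one colour throughout, and the Gbp7 row is red in all 5 wild-type columns and blue in all 4 null columns.

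Against the range of the 5 wild-type arrays, null array 1 had 10 of the 33 genes above it (20.4% of all genes) and 10 below it (22.7%). Null array 2 had 8 above (24.7%) and 10 below (21.3%), null array 3 had 14 above (18.7%) and 7 below (24.1%), and null array 4 had 10 above (17.3%) and 7 below (24.6%). Ifih1, Gbp3, Gbp7 and Ly6e were below in all 4 null arrays, as Irf7 and Usp18 were above in all 4. The SD was larger in null cells for 23 of 33 genes, against 59.2% of all genes.

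Upstream of these genes the receptor and kinase genes had mostly lower means. Of 10 measured, 1 fell and none rose, against 1.89% and 0.428% of all genes. At an unadjusted p under 0.05 in the limma test there were 5, against 14.9% of all genes. The median difference was -0.13, or -0.073 after quantile normalisation. The gene that fell was Il10rb, a chain of the receptors for interleukin-10 and interferon-lambda, from 7.34 ± 0.047 (SD, n = 5) to 6.97 ± 0.092 (SD, n = 4), limma adjusted p = 0.0151. The chains of the interferon-gamma receptor, named after their values were seen, differed in sign: Ifngr1 was 8.55 in wild type and 8.13 in null cells (limma adjusted p = 0.0779), and Ifngr2 was 7.13 and 7.60 (limma adjusted p = 0.094). Null array 4 stood apart for Ifngr1, at 8.50 against 8.00, 8.00 and 8.02 in the other null arrays, and without it both genes passed (limma adjusted p = 0.00343 and 0.0451). Ifnar1 and Ifnar2 differed by 0.014 and -0.15, and Jak2 by -0.32 (limma adjusted p = 0.0641, or 0.0361 without null array 2). None of 13 regulators passed the limma test (3 at an unadjusted p under 0.05), with Irf3 (0.26, limma adjusted p = 0.0748) and Irf4 (-0.42, limma adjusted p = 0.0907) lowest in p. Irf4 passed without null array 2 (limma adjusted p = 0.0274), and Irf3 after quantile normalisation. Of 18 interferon genes none passed the limma test (3 at an unadjusted p under 0.05), and 11 had means below the median of all probe sets. Ifng itself was 5.33 ± 0.23 (SD, n = 5) and 4.86 ± 0.35 (SD, n = 4), limma adjusted p = 0.206, and Ifna11, in the dim range, was 2.19 and 2.45 (limma adjusted p = 0.21).

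Among 15 genes of nucleic acid sensing, 1 rose and 1 fell, against 0.428% and 1.89% of all genes. At an unadjusted p under 0.05 in the limma test there were 4, against 14.9% of all genes. Mavs, the adaptor on mitochondria through which Ifih1 and Ddx58 signal, read 6.51, 6.25, 6.52, 6.40 and 6.49 in wild type and 6.04, 5.98, 5.62 and 5.97 in null cells. Every null array was below every wild-type array, and Mavs fell 1.45-fold (limma adjusted p = 0.0206), a call lost without wild-type array 1, 3, 4 or 5 (limma adjusted p from 0.0544 to 0.0555). Ifi204, a DNA-binding member of the Ifi200 family with near-identical relatives, rose by 1.41 log2 units (limma adjusted p = 0.00735).

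In a wider set of 42 type I responsive genes, 3 rose and 1 fell, against 0.428% and 1.89% of all genes. At an unadjusted p under 0.05 in the limma test there were 14, against 14.9% of all genes. The median difference of the 42 was -0.017, with 18 above 0 and 24 below. The sign of the median turned after quantile normalisation (0.020, 23 above 0 and 19 below) and without null array 3 (0.029). Slfn1, a schlafen gene linked to T cell quiescence, was 8.99, 8.99, 9.17, 9.02 and 9.07 in wild type and 9.63, 9.95, 9.71 and 9.80 in null cells, and rose 1.65-fold (limma adjusted p = 0.00132). Samd9l, an antiviral gene that restrains growth, rose 1.43-fold (limma adjusted p = 0.00539), and Ms4a4c 1.92-fold (limma adjusted p = 0.0256, from 0.0541 to 0.0734 without wild-type array 2, 4 or 5 or null array 1 or 3). Epsti1 fell 1.48-fold (limma adjusted p = 0.00568). Over 20 further interferon-gamma responsive genes, 1 rose (Gbp8) and 1 fell (Icam1, an adhesion ligand, 1.68-fold, limma adjusted p = 0.012), against 0.428% and 1.89% of all genes. At an unadjusted p under 0.05 in the limma test there were 8, against 14.9% of all genes. The median difference of the 20 was 0.074. That median was 0.027 without wild-type array 1, 0.029 without null array 2 and -0.010 without null array 3. With dim genes left out it was -0.14 over the 13 genes that remained, of which 2 fell (Cd274 and Icam1). Without null array 4, 4 of the 20 fell (Gbp2b, Cd274, Icam1 and Casp1), and without wild-type array 5, 2 did (Cd274 and Icam1).

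Genes of MHC class I antigen processing beyond Tap1, Psmb8 and Psmb9 had lower means in null cells in 12 of 14 cases (median -0.15, or -0.092 after quantile normalisation). Of the 14, 3 fell and none rose, against 1.89% and 0.428% of all genes. At an unadjusted p under 0.05 in the limma test there were 5, against 14.9% of all genes. The 3 that fell were the chaperones Canx (1.53-fold) and Calr (1.45-fold) and the peptide-trimming enzyme Erap1 (1.46-fold), with limma adjusted p = 0.00735, 0.00937 and 0.00944. B2m and H2-K1, the chains of the class I molecule, differed by -0.034 and -0.076. In the Th1-related list 1 of 8 genes fell, against 1.89% of all genes, and 4 had an unadjusted p under 0.05 in the limma test (14.9% of all genes). All 8 means were lower in null cells (median -0.27). After quantile normalisation, or without wild-type array 1 or 2, 7 of 8 were lower, and without null array 4, 6 of 8 were. Cxcr3, a chemokine receptor induced with Tbx21, fell 3.08-fold (limma adjusted p = 0.00475), from 8.03, 8.70, 7.94, 7.95 and 8.18 to 6.11, 6.51, 6.37 and 7.15. Tbx21 itself differed by -0.43 (limma adjusted p = 0.121), with null array 4 (5.56) inside the wild-type range of 5.47 to 5.69 and the other null arrays between 4.93 and 5.13. Without null array 4 it passed (limma adjusted p = 0.00794).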

How the data were processed

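Labelled cDNA from 5 wild-type and 4 Mst1/Mst2-null Treg samples was hybridised to 1 Affymetrix array per sample, after NuGEN amplification per the labels' protocols. The authors deposited log2 values for 41345 probe sets, which the submitters' processing notes trace to RMA and to Affymetrix Expression Console 1.1. That method subtracts background, quantile-normalises probes and summarises them by median polish, which can give several arrays an identical value. Signal over background was not available from these values, so a mean below the median of all probe sets (4.04) marks the dim range, and precision is limited by the number of arrays.

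Probe sets were named through the annotation of the platform: 23521 probe sets had 1 symbol, 1814 several and 16010 none. The probe set with the highest mean stood for a gene (1082 genes had more than 1). Groups were compared in R 4.3.3 with limma 3.58.1 (lmFit, eBayes, two-sided), with Benjamini-Hochberg adjustment over 22180 genes. In a test on simulated data for this comparison over 22180 genes, 56% of genes changed by 0.5 log2 units were recovered, 88% at 1 and 98% at 1.5 and at 2, with 10 of 180 calls false. Alternatives were the replicate block, a filter on dim genes, the mean of a gene's probe sets, median centring, quantile normalisation, trended robust eBayes, array weights and leaving out each array. The level of Hspa1a and Hspa1b as a covariate was added after seeing the data. For same-numbered samples the correlations of their deviations from the group means were 0.042, -0.115, 0.0107 and 0.0409. These values do not show pairing and, taken over all genes with dim ones included, cannot exclude it. Every measured gene of the list is named. Of each pathway list, genes that passed are named, or the 2 with the smallest p where none passed, and further genes named were chosen after their values were seen. The genes and lists were chosen with earlier results of these data known.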

Additional observations from a re-analysis of the deposited data

Results flagged for a closer look

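In 6 of 66 groups of values tested (33 genes in each genotype), 1 array stood far from the others by Dixon's test at the 95% level, which chance gives in about 1 in 20 groups. In null cells this was Ifit3, at 7.04 in null array 4 against 6.67 in the next array. In wild-type cells Zbp1 was low in array 5 (8.60, next 8.80) and Trim30a low in array 1 (6.38, next 6.67). Gbp3 was high in wild-type array 5 (7.53, next 7.15), Gbp5 high in wild-type array 1 (6.53, next 6.39) and Irf1 high in wild-type array 3 (7.76, next 7.69).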

How the results depend on the processing

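Of 33 genes, 24 kept their direction under all 17 alternatives. The other nine changed it under at least 1, and the difference of none of these exceeded 0.0952 in size. The correlations of same-numbered samples do not show pairing, and with the replicate number as a block (replicate block) 178 genes passed instead of 515, and 0 of the 33 did, Gbp7 at a limma adjusted p of 0.0869. Wild-type array 5 has no same-numbered null sample, so under the block it does not enter the differences, which equal those without that array. In both fits Oasl2 turned to -0.0082 and Mx1 to -0.011. The block, which also fits more terms to the same arrays, ended the calls of Il10rb, Mavs, Samd9l, Epsti1, Gbp8, Canx, Calr, Erap1 and Ikzf2. With dim genes left out, 2 of the 31 listed genes that remained passed (Usp18 and Gbp7). Quantile normalisation turned Ifit1 to 0.032, Mx1 to -0.020, Rsad2 to -0.0058, Ddx58 to 0.010 and Irf1 to 0.015. Array weights turned Ifit1 to 0.0036, Oasl2 to -0.033 and Mx1 to -0.031. Apart from the absence of wild-type array 5 from the differences under the block, the cause of these changes was not tested. Leaving out 1 array at a time gave 271 to 594 genes past the threshold, 0 to 1 of the 33 (Iigp1 in place of Gbp7 without null array 1) and a type I median of 0.016 to 0.075. Over the same fits the difference ranged from -0.18 to 0.11 for Ifit1, -0.14 to 0.31 for Ifit2, -0.037 to 0.13 for Ifit3 and -0.095 to 0.20 for Oasl2. It ranged from -0.10 to 0.069 for Mx1, -0.051 to 0.057 for Rsad2, -0.036 to 0.23 for Trim30a and -0.11 to 0.016 for Irf1.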

Other observations

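Of the 33 genes, 15 (45.5%) had an identical value in at least 2 arrays, as did 56.6% of all genes.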
